A study of Mus musculus with 12 samples.

Results

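The sarcoplasmic reticulum calcium pumps (SERCA) and the small membrane peptides that regulate them were described by 6 genes: the pumps Atp2a1, Atp2a2 and Atp2a3 and the peptides Pln, Sln and Mrln. These 6 genes were picked by symbol from the 51826 rows of a gene count table, and each symbol had a row. The table held RNA-Seq counts from the atria and ventricles of 6 female FvB mice, 10 weeks old, which all received doxycycline (dox) from postnatal day 1. The 3 CUG960 +dox mice (V119, V120 and V123) were homozygous for the TREDT960I transgene, which places 960 interrupted CUG repeats among human DMPK exons under a tetracycline response element, and hemizygous for MHCrtTA, the transactivator that dox activates. The 3 MHCrtTA +dox controls (V327, V333 and V334) were hemizygous for the transactivator alone, so both genotypes shared dox and transactivator and differed in the repeat transgene. The transactivator was driven by the α myosin heavy chain promoter, which is active in cardiomyocytes, while the libraries were made from whole tissue.

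In the cardiac cycle, calcium released through the ryanodine receptor starts contraction, and SERCA returns it to the reticulum so that the muscle relaxes. Phospholamban (Pln) and sarcolipin (Sln) bind the pump in the membrane and lower its activity. Phospholamban lets go when it is phosphorylated in response to adrenergic drive, and sarcolipin is known as the atrial member of the pair. Myoregulin (Mrln) inhibits the pump in skeletal muscle, and DWORF, the product of Strit1, displaces the inhibitors and raises pump activity in ventricular muscle.

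The peptides are short enough for their whole reading frames to be shown. They were read from the GENCODE M21 transcripts of GRCm38. The frames of Pln (52 residues, chr10:53343864-53344022, plus strand), Sln (31 residues, chr9:53853473-53853568, plus strand) and Mrln (46 residues, chr10:70219496-70219636, plus strand) each lie within 1 exon. That of Gm34302, which RefSeq lists as Strit1, has 34 residues, spans chr3:63481290-63483827 on the minus strand and is broken by introns. Capitals mark codons 16 and 17 of Pln, the serine and threonine that are phosphorylated to relieve the pump, and the start and stop codons of the other frames.
Pln: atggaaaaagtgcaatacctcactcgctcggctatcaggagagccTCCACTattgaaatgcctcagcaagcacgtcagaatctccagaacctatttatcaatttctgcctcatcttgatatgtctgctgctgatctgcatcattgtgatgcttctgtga
Sln: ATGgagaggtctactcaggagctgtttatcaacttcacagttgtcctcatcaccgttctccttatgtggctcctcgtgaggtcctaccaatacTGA
Mrln: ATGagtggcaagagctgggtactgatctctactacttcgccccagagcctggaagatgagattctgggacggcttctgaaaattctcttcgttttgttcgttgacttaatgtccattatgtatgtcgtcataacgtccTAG
Gm34302: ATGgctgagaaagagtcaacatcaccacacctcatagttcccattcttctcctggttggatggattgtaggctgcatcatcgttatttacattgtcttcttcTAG

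Depth was between 116127966 and 160676189 counts per library. Levels are counts scaled to a common library size (CPM) by the TMM factors of all 12 libraries, given per mouse or as mean ± SD over 3 mice, and a gene at 1 CPM had about 138 counts. Within each chamber, the genotypes were compared by the quasi-likelihood test of edgeR, and P values were adjusted over all genes tested (Benjamini-Hochberg). To pass, a gene needed an adjusted P value under 0.05 and at least a 1.5-fold change. The chamber labels matched the markers. Myl2, the ventricular regulatory light chain, had 9407 ± 1027 CPM (SD, n = 3) in control ventricles and 18.0 ± 13.5 CPM in control atria. Of the 13 atrial markers, 12 were lower in control ventricles than in control atria, and Kcna5 was higher. These are bulk tissues, so that fewer cells of a type and less RNA per cell cannot be told apart.

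Of the 6 genes, 1 passed in atria (Mrln, higher in CUG960 +dox) and 0 in ventricles, where 5.49% of 17650 and 4.75% of 16909 genes passed. Without the fold limit Pln also passed in atria, giving 2 of 6 genes against 14.6% of all genes, and still 0 in ventricles against 9.94%. Over the 6 genes the median log2 fold change was −0.11 in atria and 0.029 in ventricles, and over all genes tested it was −0.0088 and −0.0094. In atria Atp2a2 (0.030), Pln (0.0012) and Mrln (0.0010) had unadjusted P values under 0.05 by edgeR, against 30.2% of all genes. In ventricles, 1 of the 6 genes (Atp2a3) had an unadjusted P value under 0.05, against 25.7% of all genes. DESeq2 also passed 0 there, with Atp2a3 at an adjusted P value of 0.022 under the fold limit. It gave Sln no adjusted P value in ventricles.

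**Figure D1:**
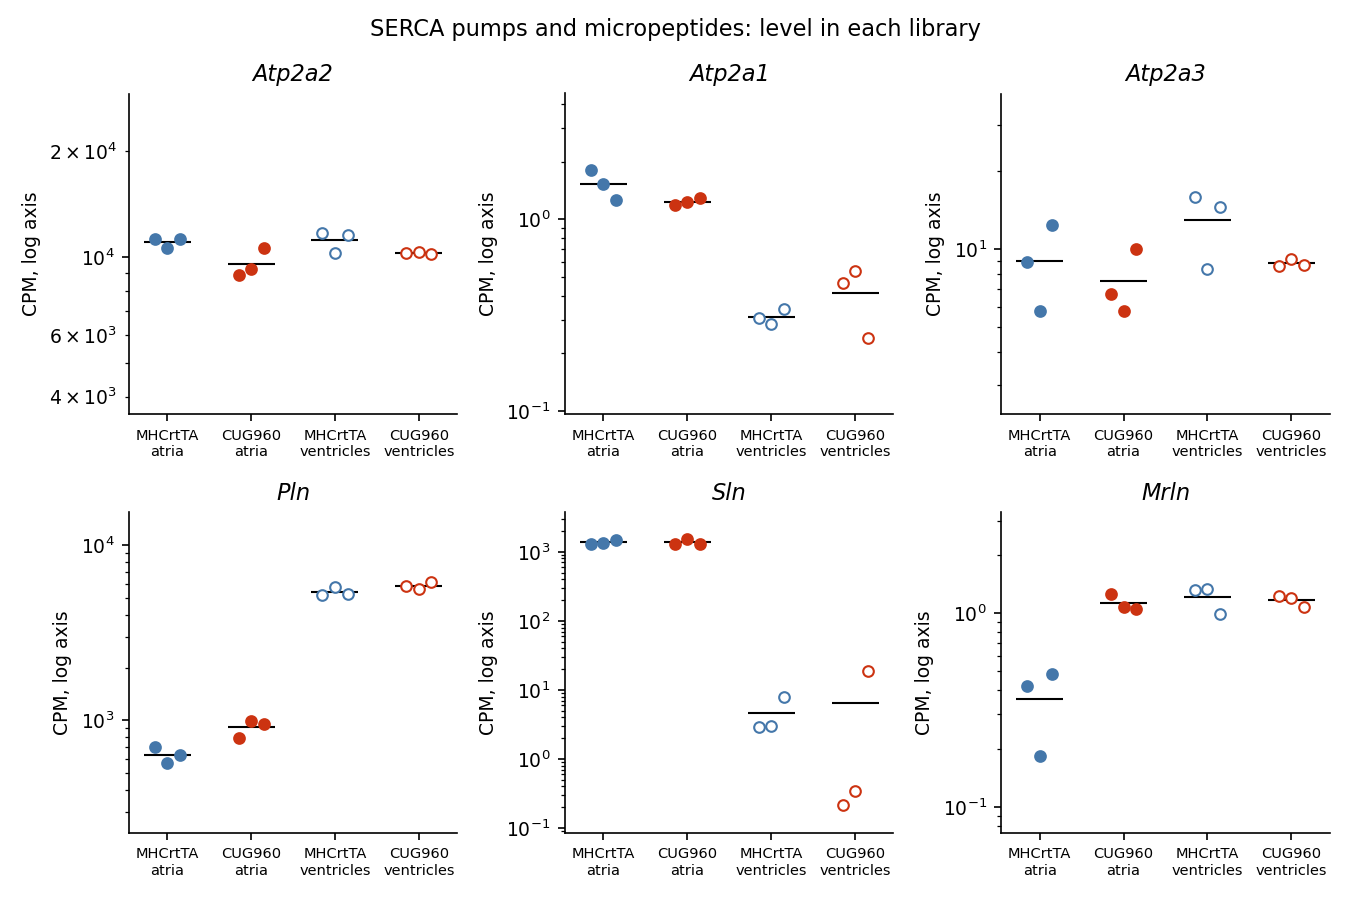
Level of each gene in each of the 12 libraries, in CPM on log axes that differ between panels. Blue is MHCrtTA +dox, red CUG960 +dox, filled circles atria, open circles ventricles, and lines are means of 3 mice. Mrln in control atria (0.184 to 0.485 CPM) sits below all other libraries, and Sln in ventricles spreads from 0.213 to 18.5 CPM.

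The pump Atp2a2, which encodes SERCA2, the main calcium pump of heart muscle, was by far the most abundant of the 3 pump transcripts in each group. The gene lies on the minus strand of chromosome 5 (chr5:122453513-122502225). It had 11267, 10621 and 11266 CPM in the atria of V327, V333 and V334, and 8901, 9220 and 10584 CPM in those of V119, V120 and V123. The 3 CUG960 +dox mice thus lay below the 3 controls, by a narrow gap between V123 and V333. The log2 fold change was −0.21 (SE 0.080, unadjusted P value 0.030, adjusted P value 0.12 by edgeR), and it did not pass. Without V123 it was −0.29 with an adjusted P value of 0.025, which is still under the fold limit. In ventricles Atp2a2 had 11707, 10297 and 11560 CPM in controls and 10293, 10343 and 10218 CPM in CUG960 +dox mice, which overlapped. Its log2 fold change there was −0.12 (SE 0.095, adjusted P value 0.47 by edgeR). Counts are summed over the gene, so its muscle and housekeeping isoforms were not separated.

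Atp2a1 encodes SERCA1, the pump of fast skeletal muscle (chr7:126445858-126463108, minus strand), and Atp2a3 encodes SERCA3, known from platelets, lymphocytes and endothelium (chr11:72961169-72993044, plus strand). Atp2a1 was near the lower end of detection, with 171 to 278 counts per library in atria and 30 to 74 in ventricles. In atria its levels were 1.82, 1.54 and 1.26 CPM in controls and 1.19, 1.23 and 1.29 CPM in CUG960 +dox mice. The log2 fold change was −0.31 (SE 0.17, adjusted P value 0.26 by edgeR). In ventricles they were 0.307, 0.285 and 0.339 CPM against 0.466, 0.536 and 0.240 CPM, and the log2 fold change was 0.42 (SE 0.35, adjusted P value 0.50 by edgeR). The groups overlapped in both chambers. The end of Atp2a1 overlaps Rabep2 on the other strand, and whether the counting used strand is not given in the sources used here.

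Atp2a3 had 8.92, 5.78 and 12.4 CPM in control atria and 6.73, 5.77 and 10.0 CPM in CUG960 +dox atria, and the mice of a group differed by more than the groups did (log2 fold change −0.27, SE 0.29, adjusted P value 0.58 by edgeR). In ventricles it had 15.9, 8.35 and 14.6 CPM in controls and 8.64, 9.17 and 8.67 CPM in CUG960 +dox mice. The CUG960 +dox mice were close together, and the control V333 lay below all of them. This gave a log2 fold change of −0.55 (SE 0.20, adjusted P value 0.12 by edgeR). The adjusted P value was 0.022 by DESeq2 and 0.025 with no filter on low counts, in both under the fold limit. Without V333 it was −0.78 with an adjusted P value of 0.0045, where it passed.

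Markers of cells that may carry SERCA3 were read in the same libraries. The 5 platelet markers, led by Pf4 in most libraries, summed to 30.6, 7.51 and 12.6 CPM in control ventricles and to 8.92, 6.80 and 5.96 CPM in CUG960 +dox ventricles, and in atria to between 12.2 and 45.9 CPM in both genotypes. The endothelial markers summed to between 818 and 967 CPM in control ventricles and between 665 and 707 CPM in CUG960 +dox ventricles. These sums did not overlap, and the same held in atria (845 to 1058 against 688 to 816 CPM). Singly, Pecam1, Cdh5, Tek and Tie1 lay below the controls in both chambers and Emcn in ventricles. Kdr, Egfl7 and Vwf overlapped in both chambers, and Emcn in atria. The share of all genes without overlap was not taken. Among the 8 endothelial genes, Pecam1 (log2 fold change −0.71) and Tek (−0.62) fell in atria and 0 passed in ventricles, beside 5.49% and 4.75% of all genes. With no fold limit 4 fell in atria and 3 in ventricles, beside 14.6% and 9.94%. The T cell markers never exceeded a sum of 3.88 CPM. None of the platelet, endothelial or T cell markers was at 0. The part of these cells in the level of Atp2a3 was not tested.

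Pln lies on the plus strand of chromosome 10 (chr10:53337667-53345987), within Cep85l on the opposite strand, and here too the strand setting of the counting is not given in the sources used here. In atria Pln had 706, 570 and 636 CPM in controls V327, V333 and V334 and 788, 997 and 950 CPM in V119, V120 and V123. All CUG960 +dox atria were above all control atria. The log2 fold change was 0.52 (SE 0.11, 1.43-fold, adjusted P value 0.017 by edgeR), past the adjusted P value and under the fold limit. Leaving out 1 mouse moved the adjusted P value above 0.05 without V120 (0.067), V333 (0.061) or V334 (0.050), and the log2 fold change stayed between 0.44 and 0.61. Without V119 or V327 the fold limit was also met, at 0.61 and 0.59.

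In ventricles Pln was 5223, 5786 and 5263 CPM in controls and 5820, 5600 and 6187 CPM in CUG960 +dox mice. The control V333 lay among the CUG960 +dox mice, and the log2 fold change was 0.12 (SE 0.093, adjusted P value 0.49 by edgeR). The difference between the chambers in the genotype change was −0.40 on the log2 scale (SE 0.15), with an adjusted P value of 0.26 for the interaction of chamber and genotype, so that the atrial change was not shown to differ from the ventricular one.

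The number of phospholamban transcripts per pump transcript was taken as the ratio of Pln to Atp2a2 counts, which does not depend on library scaling. In atria it was 0.0627, 0.0536 and 0.0565 in controls and 0.0886, 0.108 and 0.0898 in CUG960 +dox mice, or 0.0576 ± 0.0046 and 0.0955 ± 0.011 (SD, n = 3 each). The means of log2 differed by 1.65-fold and the groups did not overlap. The exact two-sided permutation test gave p = 0.1, the smallest that 3 mice against 3 allow. In ventricles the ratio was 0.446, 0.562 and 0.455 in controls and 0.565, 0.541 and 0.605 in CUG960 +dox mice, a 1.18-fold difference with overlap (exact permutation p = 0.2). Ratios of counts are not ratios of molecules, because the genes differ in length.

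**Figure D2:**
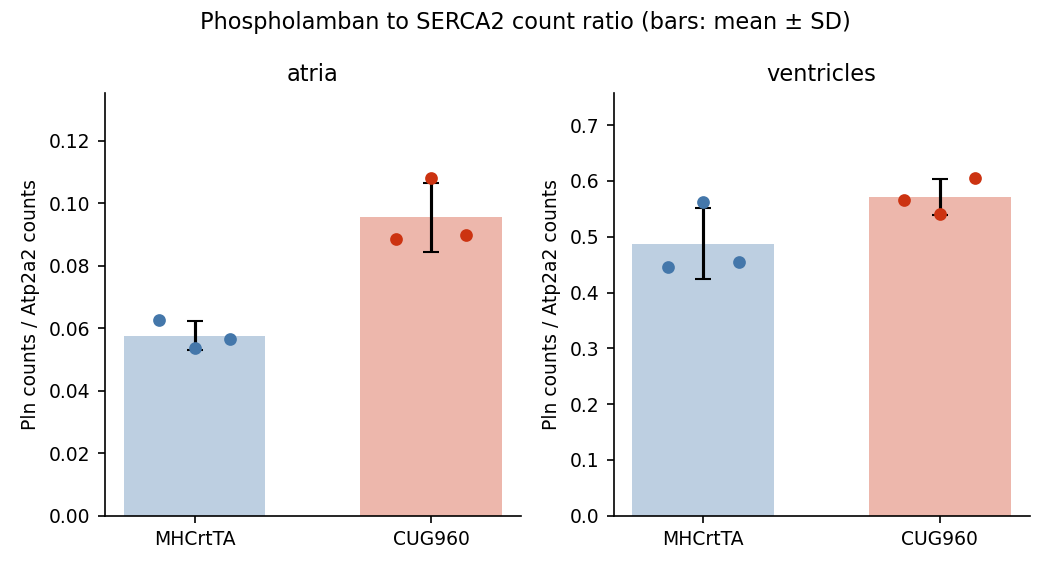
Counts of Pln divided by counts of Atp2a2 in each mouse (points), with mean ± SD of 3 mice (bars and whiskers), on axes that start at 0 and differ between chambers. In atria the CUG960 +dox mice (0.0886 to 0.108) lie above the controls (0.0536 to 0.0627), and in ventricles the groups overlap.

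Sln lies on the plus strand of chromosome 9 (chr9:53850164-53854560). In atria its levels were 1304, 1327 and 1480 CPM in controls and 1313, 1509 and 1278 CPM in CUG960 +dox mice. These groups overlapped almost fully, and the log2 fold change was −0.0046 (SE 0.085, adjusted P value 0.98 by edgeR), a value so close to 0 that it was 0.034 when libraries were scaled by total counts. The ratio of Sln to Atp2a2 counts in atria was 0.124 ± 0.0079 in controls and 0.144 ± 0.022 in CUG960 +dox mice (SD, n = 3 each; exact permutation p = 0.3).

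In ventricles Sln was low and uneven. The controls V327, V333 and V334 had 2.90, 2.99 and 7.84 CPM, from 321, 315 and 878 counts. V119 and V120 had 0.213 and 0.341 CPM, from 31 and 47 counts, while V123 had 18.5 CPM, from 2320 counts. The CUG960 +dox group thus held both the lowest ventricular libraries and the highest. Over all 6 libraries the log2 fold change was 0.47 (SE 1.23, adjusted P value 0.85 by edgeR). Without V123 it was −4.05 with an adjusted P value of 0.0034, and the number of genes that passed in ventricles went from 0 to 1, so that a single ventricular library set both direction and call. The interaction of chamber and genotype for Sln was 0.47 (SE 1.41, adjusted P value 0.94 by edgeR), and without V123 it was −4.09 (0.015). The ratio of Sln to Atp2a2 counts in ventricles was 0.00041 ± 0.00024 in controls and 0.00062 ± 0.0010 in CUG960 +dox mice (SD, n = 3 each). Its means of log2 differed by −1.77 (exact permutation p = 0.4), opposite in sign to the log2 fold change over all 6 libraries.

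Sln is used as an atrial gene, and the other atrial genes were therefore read in the same ventricular libraries, each as a percent of its level in the atria of the same mouse. Sln was at 0.222%, 0.225% and 0.529% in V327, V333 and V334, at 0.0162% and 0.0226% in V119 and V120, and at 1.45% in V123. Myl7, the atrial regulatory light chain, was at 0.279%, 0.175% and 0.690% in the controls, at 0.00580% and 0.0105% in V119 and V120, and at 2.22% in V123. Myl4, the atrial essential light chain, was at 0.253%, 0.211%, 0.594%, 0.0803%, 0.114% and 2.03% in the same order. Sln and both light chains thus shared the highest library (V123), the next highest (V334) and the 2 lowest (V119 and V120).

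Other atrial genes did not all take that order. Bmp10, a growth factor of atrial trabeculae, was at 0.121%, 0.149% and 0.362% in controls and at 0.00241%, 0.0176% and 0.0117% in V119, V120 and V123, so that it was low in V123, where Sln was high. Dkk3, a secreted Wnt pathway antagonist, was at 0.949%, 0.565% and 1.68% in controls and at 0.546%, 0.621% and 1.90% in CUG960 +dox mice. Nppa, the gene of atrial natriuretic peptide, was at 0.295% to 0.580% in controls and at 0.759%, 1.81% and 1.28% in V119, V120 and V123. The remaining atrial markers were higher in ventricles relative to atria, such as Stard10 (4.10% to 6.80%) and Nr2f2 (11.2% to 18.8%), and Kcna5 was at 337% to 441%. The 13 atrial markers summed to 245, 258 and 328 CPM in control ventricles and to 248, 403 and 460 CPM in V119, V120 and V123, with Nppa or Kcnj3 the most abundant and none at 0. The part of atrial tissue in the ventricular Sln counts was not tested.

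**Figure D3:**
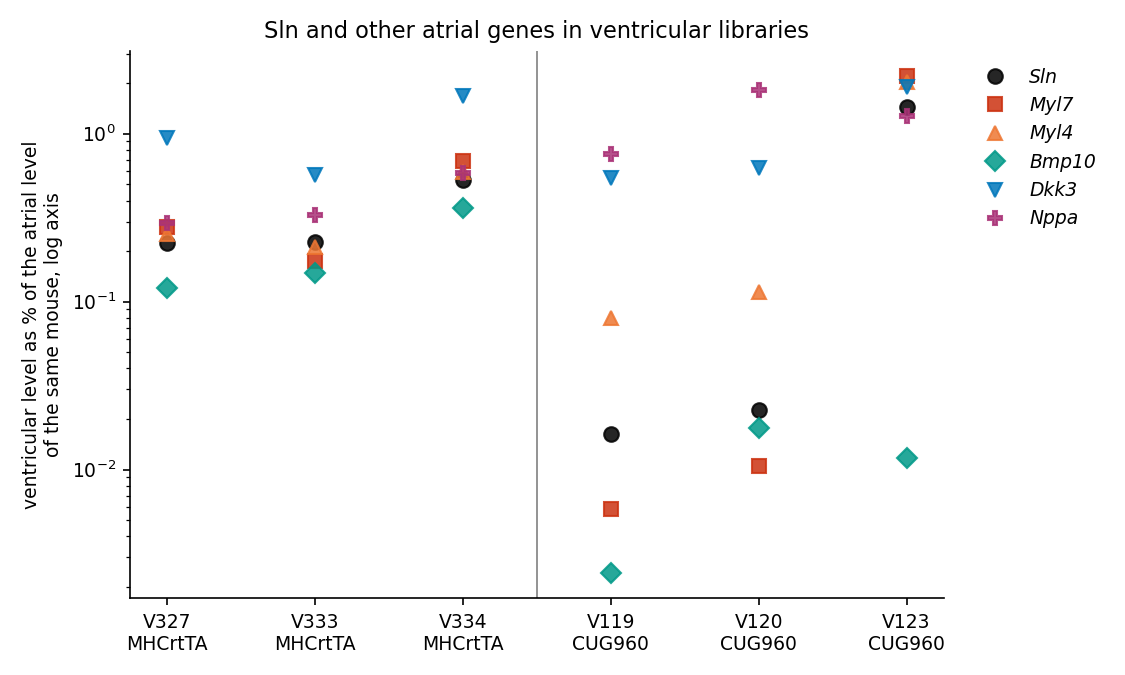
Ventricular level of Sln and 5 atrial genes as a percent of the atrial level of the same mouse, on a log axis, for the 3 controls (left of the line) and the 3 CUG960 +dox mice (right). Sln, Myl7 and Myl4 are lowest in V119 and V120 and highest in V123, whereas Bmp10 stays at or under 0.0176% in all CUG960 +dox mice.

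Mrln lies on the plus strand of chromosome 10 (chr10:70204664-70219711). In atria it had 0.419, 0.184 and 0.485 CPM in controls, from 64, 32 and 76 counts, and 1.25, 1.08 and 1.05 CPM in CUG960 +dox mice, from 179, 168 and 143 counts. Each CUG960 +dox mouse had more than each control. Mrln rose 3.12-fold, a log2 fold change of 1.64 (SE 0.33, adjusted P value 0.015 by edgeR). Its log2 fold change lay between 1.32 and 1.91 when each mouse was left out, and the adjusted P value went above 0.05 without V119 (0.060).

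In ventricles Mrln had 1.32, 1.33 and 0.991 CPM in controls and 1.22, 1.20 and 1.08 CPM in CUG960 +dox mice, which overlapped (log2 fold change −0.056, SE 0.19, adjusted P value 0.89 by edgeR). The atria of CUG960 +dox mice, at 1.13 ± 0.11 CPM (SD, n = 3), were therefore near the level of the ventricles, at 1.17 ± 0.076 CPM (SD, n = 3), and control atria, at 0.363 ± 0.16 CPM (SD, n = 3), were lower. The interaction of chamber and genotype for Mrln was −1.70 on the log2 scale (SE 0.39) with an adjusted P value of 0.058, above the threshold. For the interaction 0 of the 6 genes passed, against 1.38% of 18327 genes, and 2 of 6 (Mrln and Pln) had an unadjusted P value under 0.05, against 12.3% of all genes. DESeq2 passed 1 of 6, Mrln, with an adjusted P value of 7.3e-04, and gave Sln no adjusted P value. Mrln also passed with no filter on low counts (0.019), with a minimum of 10 counts per library (0.045) and without V334 (0.047). Without any of the other 5 mice it did not pass, at 0.12 to 0.21, and blocking on the mouse put it at 0.076.

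Mrln is best known from skeletal muscle, as is Atp2a1, so skeletal muscle markers were read beside them. The 14 markers summed to 18.6, 20.8 and 22.6 CPM in control atria and to 6.44, 8.75 and 6.18 CPM in CUG960 +dox atria, and most of each sum was Mybpc2, the fast skeletal myosin binding protein C. In atria, 3 of the 7 markers tested fell, Mybpc2 (log2 fold change −2.01), Tnnt3 (−2.05) and Tnni2 (−1.34), and 0 rose, where 5.49% of all genes passed (4.75% in ventricles). In ventricles Mybpc2 fell (−2.24) among 9 tested, and 2 rose, Pvalb from at most 4 counts per library in controls to 22 to 62 in CUG960 +dox mice and Myod1 from at most 4 to 19 to 40. The sums there were 75.4 to 85.7 CPM in controls and 20.7 to 28.8 CPM in CUG960 +dox mice. The myogenic factors were near absent, and Myod1, Myf6 or both were at 0 in 10 of the 12 libraries. The part of skeletal muscle in the Mrln counts was not tested.

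**Figure D4:**
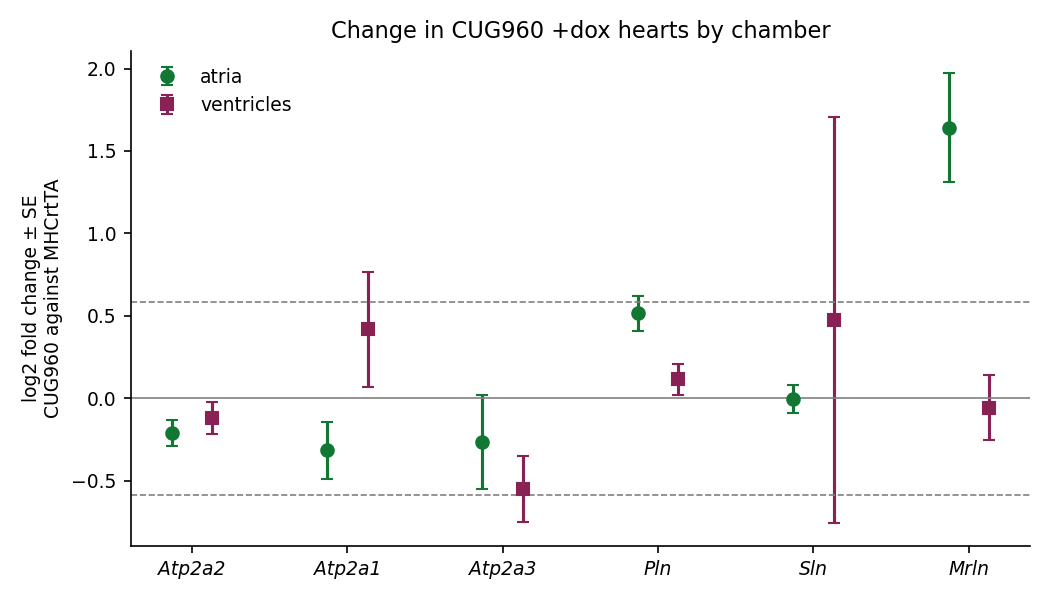
Log2 fold change of CUG960 +dox against MHCrtTA +dox for the 6 genes in atria (circles) and ventricles (squares), with standard errors, and dashed lines at the 1.5-fold limit. Mrln in atria (1.64) lies past the limit, Pln in atria (0.52) just inside it, and Sln in ventricles has the widest error (SE 1.23).

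The chambers were then compared within each genotype by the same test over all 12 libraries. In MHCrtTA +dox controls 4 of the 6 genes differed between ventricles and atria, 2 in each direction, against 35% of all genes (56% with no fold limit, where the 4 genes stood as well). In CUG960 +dox mice 3 of the 6 differed, 1 higher and 2 lower in ventricles, against 33.1% (54.3% with no fold limit, again the same 3). Scaling by total counts instead of TMM moved the median log2 difference of all genes from −0.040 to −0.49 in controls and from −0.027 to −0.41 in CUG960 +dox mice, so that the differences below are relative to the TMM scale.

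Pln was higher in ventricles than in atria in both genotypes. The difference was 3.09 on the log2 scale in controls (SE 0.11, 8.51-fold, adjusted P value 3.1e-10 by edgeR), from 637 ± 68 CPM in atria to 5424 ± 314 CPM in ventricles. In CUG960 +dox mice the difference was 2.69 (SE 0.11, 6.44-fold, adjusted P value 8.6e-10 by edgeR), from 912 ± 109 to 5869 ± 297 CPM. Within mice, atrial Pln was 9.85% to 13.5% of ventricular Pln in the controls and 13.5% to 17.8% in CUG960 +dox mice. In the same atria Myl2 was at 0.0838% to 0.364% of its ventricular level and Irx4 at no more than 0.288%, below Pln. Other ventricular markers were above Pln in that measure, such as Myh7 (66.0% to 94.7%), Kcnj2 (55.9% to 107%) and Lrrc10 (24.1% to 45.8%).

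Sln was higher in atria in both genotypes. The log2 difference, ventricles minus atria, was −8.22 in controls (SE 1.33, 299-fold lower in ventricles, adjusted P value 1.7e-04 by edgeR) and −7.76 in CUG960 +dox mice (SE 1.3, adjusted P value 2.4e-04 by edgeR). Without V123 the latter was −12.3, so the size of the difference rested on that mouse while its direction did not. Atp2a1 was also lower in ventricles, by −2.31 in controls (SE 0.27, adjusted P value 8.9e-06) and −1.57 in CUG960 +dox mice (SE 0.26, adjusted P value 1.9e-04 by edgeR). Mrln was higher in control ventricles by 1.75 (SE 0.29, 3.35-fold, adjusted P value 1.8e-04 by edgeR). In CUG960 +dox mice it differed by 0.048 (SE 0.27, adjusted P value 0.90 by edgeR), or by −0.33 when libraries were scaled by total counts.

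For the main pump the difference between chambers did not pass in either genotype. Atp2a2 had 11051 ± 373 CPM in atria and 11188 ± 775 CPM in ventricles of controls (log2 difference 0.018, SE 0.085, adjusted P value 0.87 by edgeR), and 9569 ± 894 and 10285 ± 63 CPM in CUG960 +dox mice (0.10, SE 0.085, adjusted P value 0.33 by edgeR). By total counts these differences were −0.43 (adjusted P value 4.9e-04) and −0.28 (adjusted P value 0.011 by edgeR), both under the fold limit. Atp2a3 differed by 0.52 in controls (SE 0.28, adjusted P value 0.13), where it was higher in the ventricles of each of the 3 mice. With the mouse as a block this was 0.53 with an adjusted P value of 0.017, past the threshold with no fold limit and under the fold limit. By total counts it was 0.079 (adjusted P value 0.81), and without V327 it was 0.34 (adjusted P value 0.46 by edgeR). It differed by 0.23 in CUG960 +dox mice (SE 0.28, adjusted P value 0.51 by edgeR). In CUG960 +dox mice it was −0.15 by total counts.

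To order the genes by level, CPM were divided by the length of the merged exons of each gene in GENCODE M21, which ran from 1180 bases for Mrln to 6081 bases for Atp2a2. In control atria the levels were 1817 ± 61 CPM per kilobase for Atp2a2, 1040 ± 73 for Sln, 231 ± 25 for Pln, 1.71 ± 0.62 for Atp2a3, 0.443 ± 0.080 for Atp2a1 and 0.307 ± 0.13 for Mrln (SD, n = 3). Only Atp2a1 and Mrln overlapped among these neighbours. In control ventricles Pln (1966 ± 114 CPM per kilobase) and Atp2a2 (1840 ± 128) led with overlapping ranges, ahead of Sln (3.47 ± 2.14), Atp2a3 (2.45 ± 0.76), Mrln (1.03 ± 0.16) and Atp2a1 (0.0893 ± 0.0078), and the ranges of Sln and Atp2a3 overlapped as well.

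In CUG960 +dox atria the order of the 3 abundant transcripts was that of control atria, with Atp2a2 at 1574 ± 147, Sln at 1037 ± 94 and Pln at 330 ± 40 CPM per kilobase, and Mrln (0.955 ± 0.091) stood between Atp2a3 (1.42 ± 0.42) and Atp2a1 (0.356 ± 0.015) without overlap. In CUG960 +dox ventricles Pln (2127 ± 107, at least 2030) lay above Atp2a2 (1691 ± 10, at most 1701) in each mouse, and the ranges did not overlap. There Sln ran from 0.161 to 14.1 CPM per kilobase and spanned Atp2a3 (1.67 ± 0.057) and Mrln (0.988 ± 0.064). The annotated length of Mrln is uncertain, since its longest transcript has 451 bases. With the longest transcript as the length, the order stayed the same in 1 of the 4 groups, and the swaps were among Atp2a3, Atp2a1 and Mrln.

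The other known micropeptides of the pump were listed separately. Gm34302, the DWORF gene, had 31.5 to 43.3 CPM in control ventricles (37.2 ± 5.9, SD, n = 3) and 25.1 to 45.5 CPM in CUG960 +dox ventricles (34.3 ± 10), with a log2 fold change of −0.11 (SE 0.20, adjusted P value 0.77 by edgeR). In atria it had 3 to 16 counts per library in controls and 2 to 9 in CUG960 +dox mice, too few for the test within atria. DWORF was thus a ventricular transcript, and the groups overlapped there. 1810037I17Rik, which encodes another-regulin, a pump inhibitor of many tissues, was higher in CUG960 +dox mice in both chambers, without reaching the fold limit. It had 40.3 ± 1.0 and 56.6 ± 8.9 CPM in control and CUG960 +dox atria (log2 fold change 0.49, SE 0.11, adjusted P value 0.020) and 47.3 ± 5.9 and 63.1 ± 6.0 CPM in ventricles (0.42, SE 0.11, adjusted P value 0.038 by edgeR). Smim6, the endoregulin gene, had 1 to 9 counts per library and was not tested.

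The pump works within a store and release system, and 22 genes of calcium release and storage in the reticulum were read beside it. In atria 2 of the 22 rose and 0 fell (6 and 2 with no fold limit), and in ventricles 2 rose and 1 fell (4 and 2 with no fold limit). Over all genes, the shares that passed were 5.49% in atria and 4.75% in ventricles (14.6% and 9.94% with no fold limit). The list's median log2 fold change was 0.10 in atria and 0.070 in ventricles. Jph3, a junctophilin best known from neurons, rose in both chambers (2.31 and 1.64) at under 1 CPM. Fkbp1b, which encodes the calstabin that binds the cardiac ryanodine receptor, rose in atria (0.71, from 1.19 ± 0.12 to 1.94 ± 0.23 CPM). Ryr3 rose in ventricles (1.24, from 0.740 ± 0.13 to 1.75 ± 0.47 CPM).

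Ryr2, the release channel of heart muscle, fell in ventricles (−0.67, SE 0.13, adjusted P value 0.015 by edgeR), from 822 ± 153 to 515 ± 39 CPM (SD, n = 3). In atria it was −0.53 (SE 0.13, adjusted P value 0.030), under the fold limit, from 790 ± 29 to 546 ± 111 CPM. Casq2, the cardiac calsequestrin that holds calcium in the store, was 0.50 in atria (adjusted P value 0.0033) and 0.48 in ventricles (adjusted P value 0.0064 by edgeR), in both chambers under the fold limit. In ventricles it had 1020 ± 26 CPM in controls and 1419 ± 57 CPM in CUG960 +dox mice.

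The 28 kinases, phosphatases and binding partners of phospholamban and SERCA included 2 genes that rose in atria and 1 in ventricles, with 0 that fell in either, beside 5.49% and 4.75% of all genes. With no fold limit these numbers were 5 up and 2 down in atria and 1 up and 1 down in ventricles, beside 14.6% and 9.94% of all genes. The list's median was 0.028 in atria and 0.0037 in ventricles. Ppp1r1a encodes inhibitor-1, which restrains the phosphatase that acts on phospholamban. It rose in both chambers, from 7.65 ± 0.66 to 15.5 ± 2.1 CPM in atria (log2 fold change 1.01, SE 0.12, adjusted P value 0.0016 by edgeR) and from 1.97 ± 0.077 to 5.30 ± 1.6 CPM in ventricles (1.43, SE 0.22, adjusted P value 0.0042 by edgeR). Ppp1r1b, a related phosphatase inhibitor known as DARPP-32, rose in atria (0.87, from 34.7 ± 4.6 to 63.3 ± 9.5 CPM).

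Camk2d, the main cardiac calcium and calmodulin dependent kinase, which phosphorylates phospholamban, had 182 ± 7.6 and 181 ± 13 CPM in control and CUG960 +dox atria, and 180 ± 2.6 and 157 ± 12 CPM in ventricles, and did not pass in either. Camk2b was 0.48 in atria (adjusted P value 0.0024 by edgeR) under the fold limit, and Camk2g was −0.27 in atria and −0.32 in ventricles, also under it. S100a1, a calcium sensor that binds the pump, was 0.47 in atria (adjusted P value 0.021 by edgeR) under the fold limit.

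**Figure D5:**
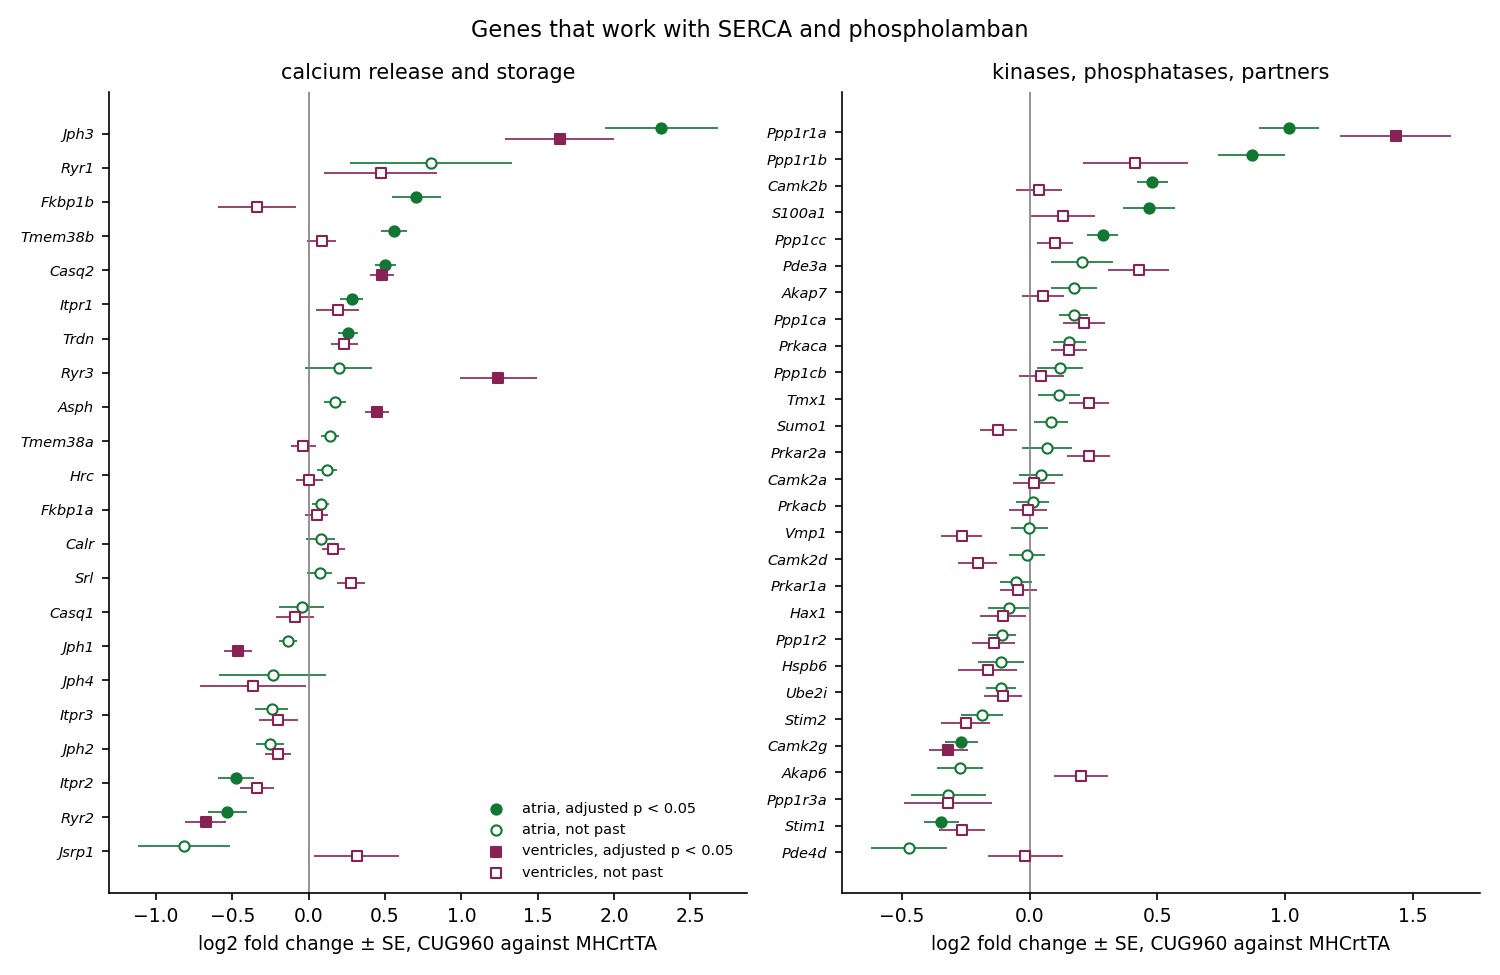
Log2 fold change with standard error of 22 genes of calcium release and storage (left) and 28 kinases, phosphatases and partners (right) in atria (circles) and ventricles (squares), ordered by the atrial value. Filled symbols have an adjusted P value under 0.05 with no fold limit, and Jph3 and Ppp1r1a are filled and to the right in both chambers.

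The next lists are small and read against the same shares of all genes, 5.49% in atria and 4.75% in ventricles (14.6% and 9.94% with no fold limit). Of the 6 other calcium ATPases, Atp2b2, a plasma membrane pump, rose in atria (log2 fold change 1.38, from 0.421 ± 0.20 to 1.10 ± 0.22 CPM) and 0 passed in ventricles, where 5 were tested. Of the 10 genes tested among the thyroid hormone receptors and regulators of Atp2a2 expression, 0 passed in either chamber. With no fold limit Thrb (0.33) and Nfatc4 (−0.39) passed in atria and 0 did so in ventricles. In the heart muscle itself, Myh6, whose promoter drove the transactivator, had 25509 ± 379 CPM in control atria and 29800 ± 550 CPM in CUG960 +dox atria (log2 fold change 0.22, adjusted P value 0.039 by edgeR), under the fold limit. The other cardiomyocyte markers had values below 0 in atria, with Ryr2 as above, Ttn at −0.44 (adjusted P value 0.087), Actc1 at −0.23 (0.097), Tnni3 at −0.10 and Tnnt2 at −0.10.

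Other marker lists were read for the makeup of the tissue, where 5.49% of all genes passed in atria and 4.75% in ventricles, so that 0 or 1 gene of such short lists is near the background. Of 6 leukocyte and 5 fibroblast markers, 0 passed in either chamber. Of 5 smooth muscle markers, 0 passed in atria, and Myh11 (−0.65) and Lmod1 (−0.75) fell in ventricles. Of 4 adipocyte markers tested in each chamber, Plin1 (−1.86) fell in ventricles. Of 6 cardiomyocyte markers, 0 passed in atria, and Ryr2 fell in ventricles. Hey2 (−0.67) fell in atria among 8 ventricular markers tested there, and 0 of 9 passed in ventricles. Of the 13 atrial markers, Gja5 (−1.51) fell in atria, and in ventricles Nppa (1.3) rose and Bmp10 (−4.06) fell. Mitochondrially encoded transcripts took 19.6% to 20.5% of counts in control ventricles, 15.3% to 18.4% in CUG960 +dox ventricles, and 10.9% to 12.2% in atria. The part of these differences in the levels of the 6 genes was not tested.

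The genes most like each member were the 5 with the highest Pearson r of log2(CPM + 1) over the 12 libraries, among 13112 genes whose mean reached 1 CPM. The points share libraries, mice and the large chamber difference, so r is a description. Sln was followed by Myl4 (0.999), Myl7 (0.996), Dkk3 (0.991), Cilp2 (0.990) and Epyc (0.990). Over the 6 ventricular libraries alone it was followed by Myl7 (0.994), Myl4 (0.991), Prkcq (0.978), Gne (0.965) and Gm28042 (0.962). Pln was followed by Suclg2 (0.997), Kmt5a (0.997), Adhfe1 (0.996), Bdh1 (0.996) and Tesc (0.996).

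The likeness was weaker for the pumps. Atp2a2 was followed by Slc35e1 (0.920), Celf2 (0.916), Abca2 (0.911), 4930429F24Rik (0.910) and Mfsd4b4 (0.907), and Atp2a3 by Alox12 (0.890), Rnf144b (0.874), Zcchc2 (0.874), Itga11 (0.864) and Dhtkd1 (0.864). Alox12, which encodes a platelet lipoxygenase, had 5.49 ± 1.4 CPM in control ventricles and 2.74 ± 1.5 CPM in control atria. Atp2a1 and Mrln had means under 1 CPM and were not compared.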

How the data were processed

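Poly(A)-selected, stranded libraries came from both chambers of 6 mice, 3 per genotype. The authors aligned reads to GRCm38 and estimated expected counts per gene with RSEM 1.3.1. The deposited expected counts were taken without scaling and rounded to whole numbers before the tests. RSEM divides reads that match several loci, so genes with near-identical copies are uncertain.

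Counts were tested with edgeR 4.0.16 in R 4.3.3 (filterByExpr, TMM, quasi-likelihood test, Benjamini-Hochberg adjustment). SE is the log2 fold change over the square root of F. Each of the 6 genes passed the filter in each fit. Alternatives were DESeq2 1.42.0, other scalings, filters and fold limits, the mouse as a block, and each mouse left out. Steps were tested on simulated data. Atria and ventricles came from the same mice, so the mouse pairs the chambers. Libraries of the same mouse correlated at r between 0.051 and 0.36 after group means were subtracted (6 pairs), and libraries of different mice at −0.42 to 0.34 (30 pairs). Replicate counts differed by more than sampling noise (chi-square per degree of freedom of at least 41.3).

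Gene models were taken from GENCODE M21. The 6 genes and the 16 other lists, 11 of them markers, were chosen with earlier results of these data known. The named genes were the 6 genes, list genes that passed in a chamber, markers and the 5 most alike genes per member. Camk2d, Smim6, 1810037I17Rik, the levels of Alox12 and list genes under the fold limit were named after their values were seen. Python 3.11.15, pandas 2.3.3, Biopython 1.88 and matplotlib 3.10.9 were used.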

Additional observations from a re-analysis of the deposited data

Results flagged for a closer look

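Of 153 list genes tested, 3 (1.96%) differed between chambers in the CUG960 +dox change by the interaction test of edgeR, against 1.38% of all genes tested. Camk2b had a log2 difference, ventricles minus atria, of −0.45 (adjusted P value 0.046), with changes of 0.48 in atria and 0.037 in ventricles. Nppa had a difference of 1.72 (adjusted P value 0.049), with changes of −0.42 in atria and 1.3 in ventricles. Bmp10 had a difference of −4.10 (adjusted P value 0.0021). It fell in ventricles by a log2 fold change of −4.06, from 2.39 to 3.75 CPM in controls to 0.0343, 0.275 and 0.208 CPM in V119, V120 and V123. Nppa and Bmp10 are atrial markers read beside Sln, and the ventricles of V123 held high Sln and low Bmp10.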

How the results depend on the processing

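Of 532 comparisons of a value with an alternative, 494 were labelled the same. For a log2 fold change this meant the same direction and side of the threshold. Counts of genes that passed were the same within 1.5-fold, and the Pln and Sln ratios were judged by direction alone. Sln in DESeq2 had no adjusted P value in 4 comparisons, which were left out. With no fold limit 2 of the 6 genes passed in atria, Pln joining at 0.52. By total counts, Sln in atria was 0.034, Mrln in ventricles 0.056, Atp2a2 between chambers −0.43 in controls and −0.28 in CUG960 +dox mice, and, in the latter, Atp2a3 −0.15 and Mrln −0.33. Atp2a2 between chambers of controls was −0.0062 by upper quartile scaling and −0.0027 with a minimum of 10 counts per library. The interaction passed for 1 gene, Mrln, by DESeq2, without a filter and at 10 counts. With the mouse as a replicate block the interaction of Sln was −1.51, and no call changed, though Atp2a3 between chambers of controls reached an adjusted P value of 0.017 under the fold limit. With the longest transcript as length, the order of levels held in 1 of 4 groups. Leaving out each mouse gave ranges: 1 to 2 genes passed in atria, 0 to 1 in ventricles and 0 to 1 in the interaction. The log2 fold changes ranged in atria from −0.53 to 0.033 for Atp2a3, 0.44 to 0.61 for Pln, −0.082 to 0.056 for Sln and 1.32 to 1.91 for Mrln. In ventricles they ranged from −0.78 to −0.37 for Atp2a3, −4.05 to 1.11 for Sln and −0.18 to 0.016 for Mrln. The interaction ranged from −4.09 (adjusted P value 0.015 by edgeR, without V123) to 1.11 for Sln and from −2.09 to −1.29 for Mrln. Atp2a2 between chambers of controls ranged from −0.0017 to 0.044, and Mrln between chambers of CUG960 +dox mice from −0.00038 to 0.11. The causes of these shifts were not tested. Depth limits Atp2a1 (30 to 278 counts per library) and Mrln (32 to 179).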
